A study of Mus musculus with 4 samples.

Results

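The brush border peptidase set holds 9 genes: Enpep, Anpep, Xpnpep2, Dpp4, Ace, Naaladl1, Mme, Mep1a and Mep1b. They were taken by symbol from the platform's probe annotation, and all 9 had a single probe set, among 19938 named genes on the array. The set was selected on earlier results of these arrays, with the differences between DKO and WT in view, so the values below describe it and carry no test. RNA came from intestinal epithelial cells that 5 mM EDTA had released, without a described sorting step, from the colons of C57BL/6 mice aged 6 to 8 weeks. All animals, wild type included, had received azoxymethane (10 mg/kg), a colon carcinogen, and 5 days later dextran sulfate sodium (3.5% in drinking water for 5 days), which injures the colon lining. Cells were collected on day 12 of this model of colitis-associated colorectal cancer. The 4 groups, under short names used here, were DKO (genotype Bmi1ΔIEC Mel18ΔIEC), Bmi1_KO (Bmi1ΔIEC), Mel18_KO (Mel18ΔIEC) and WT, with 1 Affymetrix Mouse Gene 1.0 ST array each. Bmi1 and Mel18 (gene symbol Pcgf2) encode subunits of Polycomb repressive complex 1, a repressor of chromatin. The sources used here name neither the driver of the epithelial deletion nor the number of mice behind each array.

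In the small bowel, a late step of protein digestion takes place at the microvillus membrane. Endopeptidases open peptides there, aminopeptidases and dipeptidases trim the ends, and carriers take up the amino acids, dipeptides and tripeptides that result. The colon is not a main site of this digestion, and several of these enzymes also cut peptide hormones such as angiotensins and incretins. Many of them are found outside the gut epithelium too: Anpep is the myeloid surface protein CD13, Dpp4 the T cell protein CD26, and Ace lines blood vessels.

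Values are RMA intensities on the log2 scale, with each level read only against the same probe set on another array. A gene was counted as measured when its highest array reached a log2 intensity of 6, which 12526 genes and 8 of the 9 peptidases did. With 1 array per genotype, no difference has a replicate check and no p-value is given; precision is limited by how few arrays there are. The arrays not labelled DKO give a yardstick: between Bmi1_KO and WT the middle 95% of genes lay from -0.49 to 0.52, and between Mel18_KO and WT from -0.57 to 0.48. The array labelled DKO stood apart, with a Pearson correlation across genes of 0.878 to 0.906 with the others, against 0.978 to 0.982 among the others. Listed markers of the seminal vesicle, 8 in number, had medians of 4.20, 4.72 and 4.18 for DKO, Bmi1_KO and Mel18_KO and of 10.20 for WT, so the WT array carried transcripts of that organ. Among them, Svs4 read 4.16, 5.73, 4.67 and 12.17. Bmi1_KO read 6.82 for Svs2 and 6.18 for Svs5, above the floor, against 4.32 and 3.89 on Mel18_KO. WT was far higher, at 12.02 and 11.59. For the peptidases and for the counts of each list, the averaged single deletions therefore stand beside WT as a second comparison for DKO. Bmi1 read 7.64, 7.43, 6.999 and 7.25 on DKO, Bmi1_KO, Mel18_KO and WT, and Pcgf2 read 6.81, 6.72, 6.84 and 6.96, so neither deletion showed as a loss of signal; the sources used here do not name the deleted exons, and the genotypes are those of the labels. The 8 epithelial markers had medians between 12.20 and 12.39 on all 4 arrays, the highest on average being the keratin gene Krt8 (13.08, 13.17, 13.21 and 13.06), and none of them was 1.5-fold apart between DKO and WT.

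Of the 9 peptidase genes, 6 were at least 2-fold higher on DKO than on WT and 0 were lower. Over all measured genes, 7.33% were that much higher and 8.19% that much lower. The same 6 were at least 2-fold higher on DKO than on each of the other arrays, as were 5.02% of measured genes. Against Bmi1_KO alone, 6.66% of measured genes were that much higher and 6.06% lower, and against Mel18_KO alone 7.70% and 7.32%, with 6 peptidases higher and 0 lower in both. The peptidases were picked with this contrast in view, so nothing is read from these shares. In bulk RNA, more cells of a type and more RNA per cell cannot be told apart. Against WT, Naaladl1 and Enpep were 20.5-fold and 18.1-fold higher. Anpep, Mep1a and Mep1b were between 3.19-fold and 3.37-fold higher and Xpnpep2 2.47-fold higher. Against the mean of the single deletions, Anpep, Mep1b, Mep1a and Xpnpep2 were more evenly spread, at 3.59-fold, 3.00-fold, 2.83-fold and 2.29-fold. Ace and Dpp4 were level and Mme was near background on every array.

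**Figure D1:**
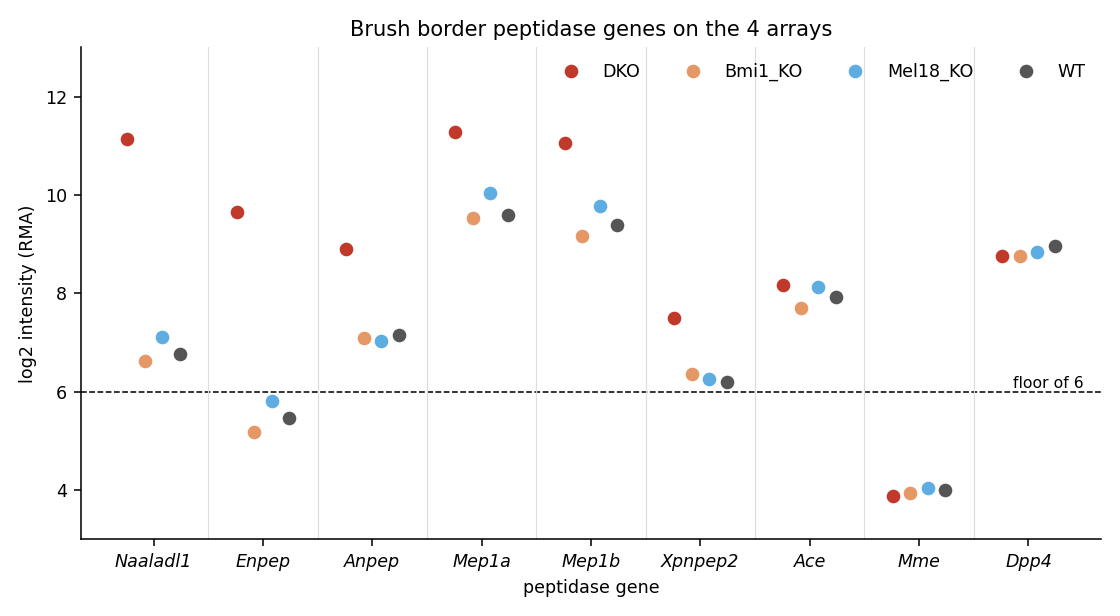
Log2 RMA intensity (vertical axis) of each peptidase gene on DKO, Bmi1_KO, Mel18_KO and WT, 1 point per array, with genes ordered by their difference between DKO and WT. The DKO point lies above the other arrays by at least 1.15 in the first 6 genes, and Mme stays under the floor of 6 on all 4 arrays.

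Promoter windows from RefSeq (GRCm38.p6), 250 bases before to 50 after an annotated start, were examined for 7 of the 9 genes. Naaladl1 and Mep1b were left out. Windows are shown for Enpep, Anpep and Mep1a, which were higher on DKO by unlike amounts, and for Dpp4, which was level. Windows of higher genes can thus be set beside that of a level gene. Both strands were searched for the core letters AGATAA bound by factors of the GATA family, for the letters GTTAAT from an HNF1 site, for CAAAGT from an HNF4 site, for TTTATG as bound by CDX factors and for TATAAA as the TATA box. Matches on either strand stand in capitals below. TATAAA can overlap its own copy on the other strand, and the HNF1 and HNF4 letters can share end bases.
Enpep, chr3:129332700-129332999, minus strand: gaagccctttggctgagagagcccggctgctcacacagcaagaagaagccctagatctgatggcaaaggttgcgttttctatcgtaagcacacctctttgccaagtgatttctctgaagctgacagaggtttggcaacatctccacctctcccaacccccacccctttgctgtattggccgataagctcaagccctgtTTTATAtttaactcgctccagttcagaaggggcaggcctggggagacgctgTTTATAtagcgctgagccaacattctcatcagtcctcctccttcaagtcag
Anpep, chr7:79848161-79848460, minus strand: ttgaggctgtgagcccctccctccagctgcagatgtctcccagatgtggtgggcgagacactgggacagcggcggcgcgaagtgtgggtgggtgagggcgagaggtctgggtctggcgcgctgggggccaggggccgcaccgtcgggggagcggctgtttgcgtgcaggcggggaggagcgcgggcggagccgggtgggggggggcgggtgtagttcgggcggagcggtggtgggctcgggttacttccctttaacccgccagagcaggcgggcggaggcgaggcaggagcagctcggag
Mep1a, chr17:43502724-43503023, minus strand: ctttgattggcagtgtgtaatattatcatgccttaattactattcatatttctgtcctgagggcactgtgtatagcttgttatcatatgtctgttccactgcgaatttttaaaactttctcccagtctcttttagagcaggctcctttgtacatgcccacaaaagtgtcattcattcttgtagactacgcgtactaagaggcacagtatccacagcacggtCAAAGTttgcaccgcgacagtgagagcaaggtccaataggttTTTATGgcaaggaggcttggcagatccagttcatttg
Dpp4, chr2:62412182-62412481, minus strand: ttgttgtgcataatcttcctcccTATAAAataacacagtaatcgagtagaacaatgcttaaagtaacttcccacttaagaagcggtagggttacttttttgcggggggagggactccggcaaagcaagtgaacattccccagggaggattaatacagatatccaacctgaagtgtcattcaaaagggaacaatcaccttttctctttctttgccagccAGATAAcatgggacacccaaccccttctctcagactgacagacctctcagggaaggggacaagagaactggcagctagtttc
No motif was common to the windows of the higher genes that were examined, Enpep, Anpep, Mep1a and Xpnpep2. Naaladl1 and Mep1b, also higher on DKO, are not covered. Enpep held 2 TATA box matches, the outer of them 52 bases before the start, Mep1a held 1 HNF4 match 29 bases before the start and 1 CDX match after it, and the windows of Anpep and Xpnpep2 held none of the 5 motifs. The level gene Dpp4 held a GATA match 32 bases and a TATA box match 227 bases before its start. Among all 32851 windows, 11.2% held the GATA letters, 7.1% those of HNF1, 14.4% those of HNF4, 11.9% those of CDX and 13.6% those of the TATA box, so single matches of this kind are common. Base composition was not shared by the higher genes examined either. Their GC content was 72.3% for Anpep, 51.3% for Enpep, 47.3% for Xpnpep2 and 42.3% for Mep1a, against a median of 52.7%. A match is a description of letters and not a site of binding, and the absence of one says nothing of the factor.

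The aminopeptidases take single residues from the amino end of a peptide. Enpep (aminopeptidase A; probe set 10502081; chromosome 3, 129269177 to 129332749 in GRCm38) removes acidic residues and turns angiotensin II into angiotensin III. It read 9.64 in DKO cells, 5.19 in Bmi1_KO, 5.81 in Mel18_KO and 5.46 in WT cells. Only the DKO array lay above the floor, so Enpep counts as measured through that array alone, and its difference of 4.18 (18.1-fold) from WT rests on a level near background; against the floor of 6 itself, DKO was 12.5-fold higher. Against the mean of the single deletions the difference was 4.15.

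Anpep (aminopeptidase N; probe set 10564818; chromosome 7, 79821803 to 79848210) removes neutral residues and has a broad range of substrates. Its levels were 8.90 in DKO cells, 7.08 in Bmi1_KO, 7.02 in Mel18_KO and 7.15 in WT cells. The 3 lower arrays lay within 0.12 of each other, and DKO stood 1.75 above WT (3.37-fold) and 1.84 above the single deletions.

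Xpnpep2 (membrane-bound aminopeptidase P; probe set 10599463; chromosome X, 48106913 to 48136982) releases a residue that is followed by proline. It read 7.51 in DKO cells, 6.36 in Bmi1_KO, 6.26 in Mel18_KO and 6.20 in WT cells. DKO was again the high array, by 1.31 over WT and 1.20 over the single deletions, and the others differed by at most 0.16. Those lower levels lay only just above the floor of 6.

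Naaladl1 (probe set 10460746; chromosome 19, 6105781 to 6115989), a relative of the folate hydrolase Folh1 described in rat as a peptidase of the ileum, gave the largest difference of the set. Its levels were 11.13 in DKO cells, 6.63 in Bmi1_KO, 7.12 in Mel18_KO and 6.78 in WT cells, or intensities of 2249, 98.9, 138.8 and 109.5 on the linear scale. All 4 arrays were above the floor, and the difference was 4.36 from WT (20.5-fold) and 4.26 from the single deletions. The levels outside DKO were under the floor of 8 used as an alternative, and the part of background in them was not tested. With log2 of the value plus 32, the difference of Naaladl1 from WT was 4.01. Over the 4 arrays its profile, centred on its own mean, lay within a root mean square distance of 0.080 of that of Enpep.

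The meprins are metalloendopeptidases that cut within peptides and also process mucus and matrix proteins. Mep1a (probe set 10451016; chromosome 17, 43474324 to 43504143), which encodes the alpha subunit, read 11.29 in DKO cells, 9.53 in Bmi1_KO, 10.04 in Mel18_KO and 9.60 in WT cells. Mep1b (probe set 10454212; chromosome 18, 21072344 to 21100199), which encodes the beta subunit, read 11.05, 9.16, 9.77 and 9.38 on the same arrays. Both were well above the floor without the double deletion, and DKO exceeded WT by 1.69 and 1.67 (3.23-fold and 3.19-fold) and the single deletions by 1.499 and 1.59. The profiles of this pair, whose products can join into one enzyme, lay 0.061 apart.

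The remaining members did not share the difference. Ace (angiotensin-converting enzyme; probe set 10381962; chromosome 11, 105967948 to 105989964), which takes dipeptides from the carboxyl end, read 8.17 in DKO cells, 7.70 in Bmi1_KO, 8.13 in Mel18_KO and 7.92 in WT cells. Dpp4 (dipeptidyl peptidase 4; probe set 10483046; chromosome 2, 62330073 to 62412315), which takes dipeptides ending in proline or alanine from the amino end and inactivates incretins, read 8.75, 8.76, 8.83 and 8.96. For both genes DKO lay within 0.25 of WT and within 0.26 of the single deletions. Mme (neprilysin; probe set 10492355; chromosome 3, 63295211 to 63383713), an endopeptidase of kidney and small bowel brush borders, read 3.87, 3.94, 4.05 and 4.00, which is under the floor on each array, so nothing is read from its differences.

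**Figure D2:**
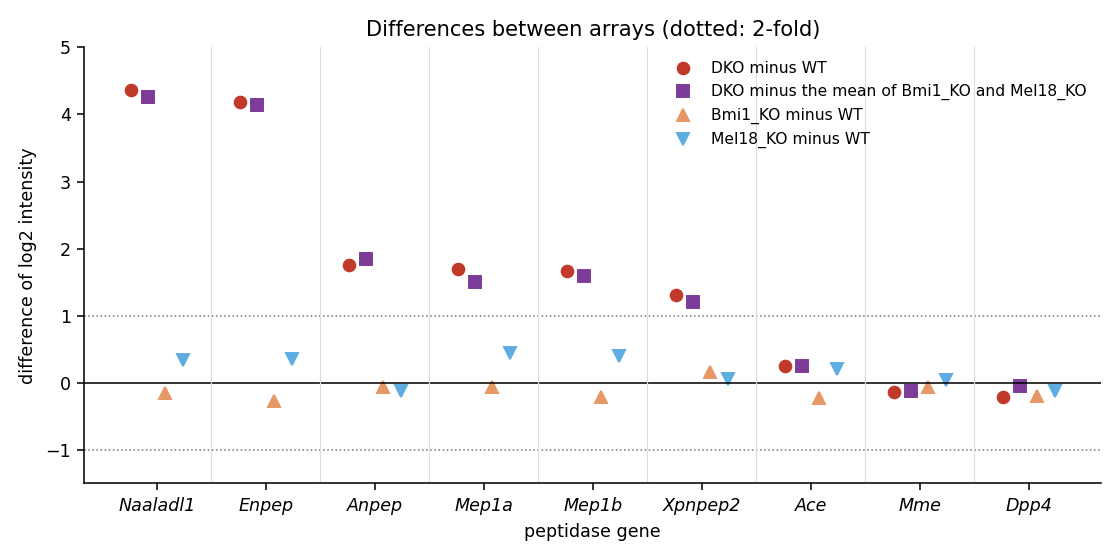
Differences of log2 intensity (vertical axis) for each peptidase gene: DKO minus WT, DKO minus the mean of both single deletions, and each single deletion minus WT. Both DKO contrasts lie above 1 for 6 genes and near 0 for Ace, Mme and Dpp4, and all single-deletion values lie between -0.28 and 0.45.

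No peptidase was 2-fold apart between either single deletion and WT, and 0 were 1.5-fold apart. On Bmi1_KO the members' differences from WT ran from -0.28 (Enpep) to 0.16 (Xpnpep2) with a median of -0.15, against -0.02 over all measured genes, of which 0.551% were 2-fold higher and 0.359% lower (2.02% and 1.53% at 1.5-fold). On Mel18_KO they ran from -0.13 (Dpp4) to 0.45 (Mep1a) with a median of 0.20, against 0.005 over all measured genes, of which 0.144% were 2-fold higher and 0.814% lower (1.19% and 2.35% at 1.5-fold). Each of these values lies inside the middle 95% of genes for its comparison. Both comparisons use the WT array.

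Set directly against each other, Bmi1_KO was below Mel18_KO for 7 of the 9 peptidases, among them Dpp4 at -0.07 and Mme with both levels under the floor. The median over the 9 was -0.43, against -0.03 over all measured genes. Most measured genes therefore also had the lower sign. Their exact share was not counted, and nothing is read from the count of 7. No peptidase passed 2-fold in either direction (1.53% of measured genes were higher on Bmi1_KO by that margin and 0.224% lower). Mep1b differed by -0.61, Mep1a by -0.51 and Naaladl1 by -0.49, with all levels above the floor. Enpep differed by -0.62, with both levels under it. At 1.5-fold, Mep1b and Enpep were lower on Bmi1_KO, as were 1.24% of measured genes, and 0 were higher, against 3.26%. The middle 95% of genes ran from -0.49 to 0.71 here, so Mep1b, Mep1a and Enpep lay past its lower edge and Naaladl1 at it. The order Mel18_KO above WT above Bmi1_KO was shown by Enpep, Ace, Naaladl1, Mme, Mep1a and Mep1b, 6 of 9, and by 20.51% of measured genes; Enpep and Mme were under the floor on all 3 of these arrays, so their order rests on background levels. Neutrophil markers ran the other way between these arrays, with 6 of 8 at least 1.5-fold higher on Bmi1_KO than on Mel18_KO and a median difference of 2.27, and their part in the peptidase values was not tested.

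A sum of the single differences from WT can be set beside the difference of DKO from WT, and the excess of the DKO difference over that sum is the departure from additivity. The departure was 4.17 for Naaladl1 and 4.11 for Enpep, then 1.93 for Anpep, 1.4996 for Mep1b, 1.31 for Mep1a and 1.09 for Xpnpep2, and lay between -0.12 and 0.26 for Ace, Dpp4 and Mme. The 6 genes past 2-fold above additivity compare with 8.19% of measured genes, and 0 were below it (6.43%). At 1.5-fold the counts were again 6 above and 0 below, beside 15.4% and 19.1%. This value contains the DKO and WT arrays and so is not a separate check of the difference between them. Against the mean of the single deletions, where 7.33% of measured genes were 2-fold higher and 6.51% lower, the same 6 members were higher and 0 lower, with a median over all 9 of 1.499. The median for DKO minus WT was 1.67, and the medians over all measured genes were -0.07 and -0.05 in these contrasts.

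Among 22 other membrane peptidases with a value, 5 exceeded their WT level by 1.5-fold or more on DKO and 2 were as far below it, and the median difference was -0.10. The median over all measured genes was -0.05, with 14.3% of them 1.5-fold higher and 20.2% lower. Against the mean of the single deletions 5 were higher and 4 lower, with a median of -0.06, beside 14.0% and 18.8% of measured genes. Dpep2, a dipeptidase of leukocytes, was higher by 1.27, Bace2, a transmembrane aspartyl protease, by 1.25 and Ggt5, a gamma-glutamyltransferase, by 1.03. Dpep1, the main membrane dipeptidase of kidney and gut, was on the other side at -1.18, with 8.27 in DKO cells, 9.82 in Bmi1_KO, 10.04 in Mel18_KO and 9.44 in WT cells. Another 8 of the 22 were under the floor on all 4 arrays, among them Tmprss15 (enteropeptidase, the duodenal activator of trypsin; 3.68, 3.71, 3.92 and 3.78) and Folh1, the relative of Naaladl1 (4.08, 4.23, 4.31 and 4.24). Of 23 peptidases inside the cell, 7 were at least 1.5-fold lower on DKO than in WT and 1 was higher, and the median was -0.32. The furthest of them were Blmh and Lta4h, both at -0.96, Prcp at -0.72 and Prep at -0.62. Against the mean of the single deletions, 8 of these 23 were lower and 0 higher.

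Peptide and amino acid transporters were mixed. Over all measured genes, 14.3% were at least 1.5-fold higher on DKO than on WT and 20.2% lower. The shares against the mean of the single deletions were 14.0% and 18.8%. Of 17, 5 were at least 1.5-fold higher on DKO than on WT, another 3 lower, and the median was 0.12; against the single deletions the counts were also 5 and 3, with a median of 0.19. The pair that forms the carrier for cystine and basic amino acids was highest: Slc7a9 read 9.84 in DKO cells, 7.17 in Bmi1_KO, 8.42 in Mel18_KO and 7.59 in WT cells, and its partner Slc3a1 read 8.61, 5.76, 7.21 and 6.62. Both were therefore more than 2-fold lower on Bmi1_KO than on Mel18_KO (-1.24 and -1.45), the direction seen for the meprins. Of measured genes, 0.224% were lower by at least 2-fold in this contrast. The Bmi1_KO level of Slc3a1 was under the floor. Slc7a8, a basolateral carrier of neutral amino acids, was higher by 1.15 on DKO than on WT, and Slc1a5, a glutamine carrier, gave -1.13. The peptide carrier Slc15a1, named outside the rule, read 11.42 in DKO cells, 10.22 in Bmi1_KO, 11.08 in Mel18_KO and 10.64 in WT cells, a difference from WT of 0.78. Slc6a19, the main neutral amino acid carrier of the small bowel brush border, was under the floor on every array (5.13, 4.64, 4.99 and 5.02).

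Genes that build the microvillus were close to level. For this list and the next, the shares of all measured genes at 1.5-fold were 14.3% higher and 20.2% lower against WT. They were 14.0% and 18.8% against the single deletions. Of 21, 2 were at least 1.5-fold higher on DKO than on WT, Eps8l2 (0.72) and the protocadherin Cdhr2 (0.62), while Eps8l3 differed by 0.50 and 1 was lower, Baiap2l2 (-0.79), with a median of 0.22. Against the single deletions the median was 0.04, with 1 higher and 2 lower. Other brush border hydrolases differed by gene. Alpi, intestinal alkaline phosphatase, read 9.51 in DKO cells, 6.14 in Bmi1_KO, 7.20 in Mel18_KO and 6.01 in WT cells, a difference from WT of 3.50. The maltase-glucoamylase gene Mgam was higher by 0.63. Enpp3 depended on the array it was set against, at 0.12 from WT and 0.86 from the mean of the single deletions. The genes Sis, Lct, Treh, Akp3 and Enpp7 were under the floor throughout, Sis at 4.29, 3.55, 3.63 and 3.45. Of these 10 genes, 3 were at least 1.5-fold higher on DKO and 0 lower in each contrast, with medians of 0.07 against WT and 0.11 against the single deletions. The 3 were Sis, Mgam and Alpi against WT and Sis, Alpi and Enpp3 against the single deletions. Sis is counted in both although its levels were under the floor.

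**Figure D3:**
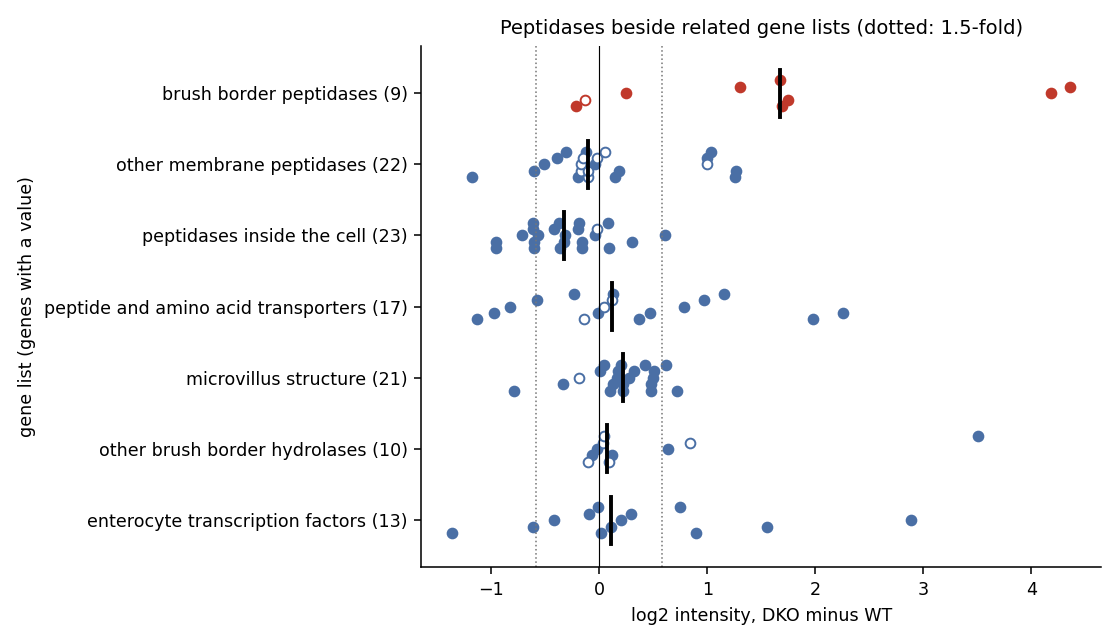
Difference of log2 intensity between DKO and WT (horizontal axis) for each gene of the peptidase set and of 6 related lists; filled points passed the floor of 6, open points did not, and bars mark list medians. The peptidase median is 1.67 and the other medians lie between -0.32 and 0.22.

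Of 13 transcription factors known from enterocytes, 4 were at least 1.5-fold higher on DKO than on WT and 2 lower, and their median difference was 0.11. Against the single deletions the counts were the same, with a median of 0.03. Measured genes gave 14.3% higher and 20.2% lower against WT, and 14.0% and 18.8% against the single deletions. Gata4, a factor of the proximal small bowel, was higher by 2.89 and Gata5 by 0.90, Prdm1 by 1.56, and Cdx1, a hindgut homeobox factor, stood at -1.36. Hnf4a, which drives many brush border genes, read 11.72, 11.69, 11.77 and 11.73 on DKO, Bmi1_KO, Mel18_KO and WT and was level.

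Genes that encode substrates and receptors of these peptidases, chosen after their values were seen, gave no single direction. Agt, the angiotensin precursor, and its receptor gene Agtr1a differed from WT by 0.06 and -0.22 on DKO. Gcg and Pyy, whose hormones Dpp4 trims, gave -0.03 and -0.16. Cck, whose product aminopeptidase A can degrade, read 8.30 in DKO cells, 6.20 in Bmi1_KO, 6.29 in Mel18_KO and 6.44 in WT cells, a difference of 1.85. Tac1, the substance P precursor, read 10.87, 8.39, 9.72 and 10.43.

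Cell type markers also differed between DKO and WT. Beside the counts below, 14.3% of measured genes were at least 1.5-fold higher on DKO than on WT and 20.2% lower. Against the mean of the single deletions these shares were 14.0% and 18.8%. Among 14 small bowel enterocyte markers, 7 were at least 1.5-fold higher on DKO than on WT and 1 lower, and the log2 of their summed intensity was 13.25 in DKO cells, 11.41 in Bmi1_KO, 11.74 in Mel18_KO and 11.54 in WT cells. The apolipoprotein gene Apoa1 read 11.73 in DKO cells, 6.40 in Bmi1_KO, 6.56 in Mel18_KO and 6.29 in WT cells, a difference from WT of 5.44, larger than that of any peptidase. Mttp and Apob, which load lipid onto lipoproteins, were higher by 3.22 and 3.08, the ileal bile acid carrier Slc10a2 by 3.05, Apoa4 by 2.10, Apoc3 by 1.26 and Ada by 0.62. The ileal bile acid binding protein gene Fabp6 was lower, at -1.16, with both levels under the floor (4.77 on DKO and 5.93 on WT). Slc5a1, the glucose carrier and the marker with the highest mean over the 4 arrays, differed by -0.38, and Slc2a2, Slc2a5 and Cubn were under the floor on all arrays. Against the single deletions 7 of the 14 were higher and 2 lower.

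Of 10 mature colonocyte markers, 1 was at least 1.5-fold higher on DKO than on WT and 4 lower, with summed levels of 14.52, 14.62, 14.90 and 14.83 on DKO, Bmi1_KO, Mel18_KO and WT. Against the single deletions 1 was higher and 5 lower. Trpm6, a magnesium channel gene, differed from WT by -2.33 and the chloride exchanger gene Slc26a3 by -1.60, while Car4, highest on average, gave 0.25. Of 4 Paneth cell markers with a value, 3 were higher on DKO in both contrasts, with summed levels of 9.87, 8.38, 8.27 and 8.24. Lyz1 and Mmp7 differed from WT by 1.61 and 1.96. The 3 also include Defa24, which like Itln1 was under the floor throughout. The part of these cell types in the peptidase values was not tested.

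Many markers of neutrophils, mononuclear phagocytes, endothelial cells, and fibroblasts and pericytes were higher on DKO too, and some of these cells express these peptidases. Most T cell and B and plasma cell markers were within 1.5-fold. Over all measured genes, 14.3% were at least 1.5-fold higher on DKO than on WT and 14.0% higher than the mean of the single deletions. In 7 of 8 cases neutrophil markers exceeded their WT level by 1.5-fold or more, with summed levels of 14.20 in DKO cells, 13.37 in Bmi1_KO, 10.72 in Mel18_KO and 12.16 in WT cells. Mononuclear phagocyte markers were higher in 6 of 8 cases, with summed levels of 13.21, 11.94, 11.13 and 11.60. The counts against the single deletions were again 7 and 6. Both cell types carry Anpep. Lyz2 was higher by 2.01, Cd14 by 1.09 and the neutrophil gene Retnlg by 1.82, and Cd163 was under the floor.

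Endothelial cells carry Ace, and their markers were higher in 6 of 7 cases against WT and 5 against the single deletions, with summed levels of 9.79, 8.93, 8.62 and 8.79. Pecam1 differed from WT by 1.74, Cdh5 by 1.03 and Vwf by 0.64, and Tek was under the floor. T cells carry Dpp4, and their markers were higher in 2 of 6 cases against WT and 1 against the single deletions (summed 9.20, 8.85, 8.78 and 8.60), with Cd3g at 1.28, Cd3e at 0.63 and Cd3d under the floor. Enpep is also made by B cell precursors and pericytes. B and plasma cell markers were higher in 2 of 5 cases against WT, with 1 higher and 1 lower against the single deletions (summed 9.79, 8.55, 9.04 and 8.22). Jchain differed from WT by 2.91, Ms4a1 by 1.01 and Cd79b by 0.50, and Pax5 was under the floor. Fibroblast and pericyte markers were higher in 6 of 10 cases against WT and 4 against the single deletions (summed 11.56, 11.03, 10.34 and 10.51). Dcn differed from WT by 1.68 and Pdgfrb by 0.41, and Rgs5 differed by 1.21 with all levels under the floor, as were Lum and Cspg4. The part of these cells in the peptidase values was not tested.

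**Figure D4:**
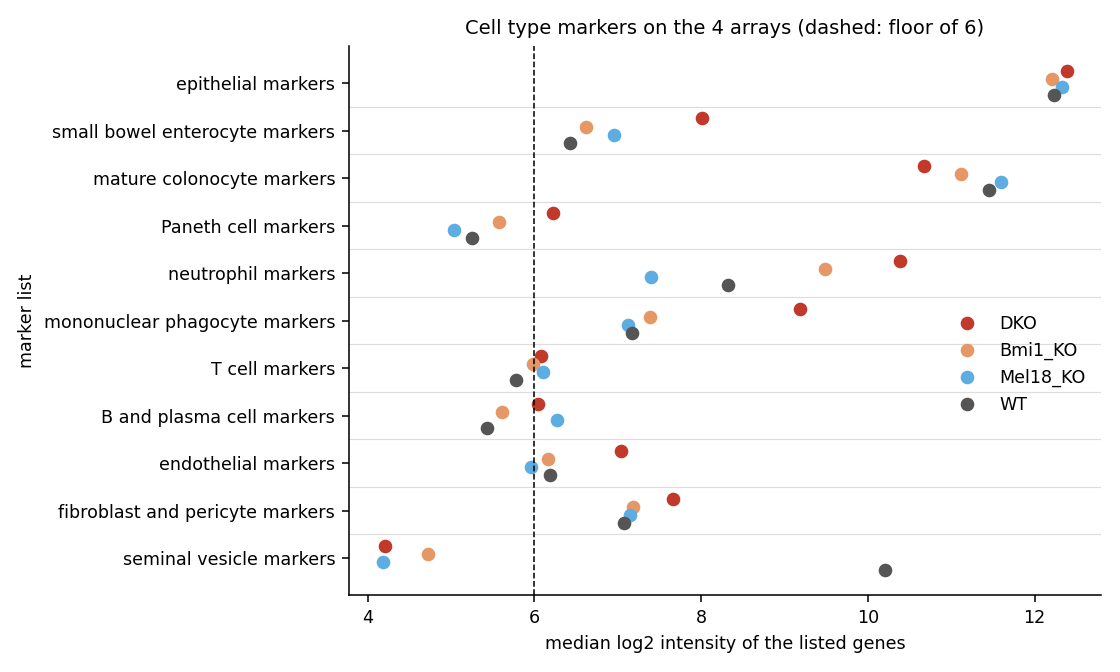
Median log2 intensity (horizontal axis) of each cell type marker list on DKO, Bmi1_KO, Mel18_KO and WT, 1 point per array. Epithelial medians lie between 12.20 and 12.39, and DKO is highest for neutrophil (10.39) and mononuclear phagocyte markers (9.19). The median of the seminal vesicle markers is high on WT alone (10.20).

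The genes with the profile most like each higher peptidase were sought among 11937 measured genes by the root mean square distance of their centred log2 values over the 4 arrays. Closest to both Enpep and Naaladl1 were the pantetheinase Vnn1 (0.12 and 0.17), Gml (0.26 and 0.34) and Tm4sf5 (0.35 and 0.36); Vnn1 read 10.07 in DKO cells, 5.93 in Bmi1_KO, 6.48 in Mel18_KO and 6.11 in WT cells. Closest to both meprins was Tnfsf13b, the B cell survival factor BAFF (0.021 from Mep1a and 0.053 from Mep1b), followed by B4galnt1 and the galectin Lgals2 for Mep1a and by Tmem140 and the nitric oxide synthase Nos2 for Mep1b. Closest to Anpep were Tnf (0.030), Rasgrp1 and Pla2g2d, and closest to Xpnpep2 were Slc16a3 (0.024), Samhd1 and Dusp16. With 4 arrays, of which 1 stood apart, any gene high on DKO by a like amount scores as close.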

How the data were processed

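The authors deposited linear probe set intensities, 1 array per genotype. The submitters' processing notes name RMA and Affymetrix Expression Console, without a version in the sources used here. RMA gives the arrays a common distribution, which would take out a shift of most genes in one direction. Intensities ran from 4.70 to 13738 over 35556 probe sets, and log2 was taken here before any difference.

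Of these probe sets 21789 carried 1 gene symbol in the platform annotation; for the 999 genes with several, the brightest was used, giving 19938 genes. Those that reached a log2 intensity of 6 on any array formed the background of 12526 genes. Related lists were described over all members with a value, at 1.5-fold. Positions came from RefSeq (GRCm38.p6), matched on symbol and gene identifier for all 9 peptidases. The peptidases, lists, naming rule and motifs were chosen with earlier results of these data known. Named genes were the 9 peptidases, Bmi1 and Pcgf2, the 4 genes of each related list furthest apart between DKO and WT and any past 2-fold the other way, the marker of each cell type list with the highest mean over the 4 arrays, a choice that favours genes high on every array, and the 3 nearest profiles of each higher peptidase. Other genes named from these lists were picked after their values were seen. An additive limma fit would include the DKO array with which the members were picked, so it was left out.

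Alternatives were no filter, log2 of the value plus 32, cyclic loess, a floor of 8, centring on array medians, averaging a gene's probe sets, thresholds of 1.5-fold and 3-fold, and another array in place of WT. Analyses used Python 3.11.15 with numpy 2.4.6 and pandas 2.3.3, and limma 3.58.1 in R 4.3.3 for cyclic loess, and counting and profile distances were tested on simulated data.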

Additional observations from a re-analysis of the deposited data

Results flagged for a closer look

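For 7 of the 9 peptidases, a deletion went with opposite signs depending on whether the other gene was also deleted; each effect is a difference between single arrays, and the difference between them was not tested. Opposite signs were common, shown by 64.6% of measured genes for at least 1 deletion, by 43.8% for loss of Bmi1 and by 49.6% for loss of Mel18. In all 7 peptidases the effect with the other gene present lay inside the middle 95% of genes for that comparison, so its sign is not set apart from 0. Loss of Bmi1 on the Mel18-deleted arrays, against loss of Bmi1 with Mel18 present, gave 3.83 and -0.28 for Enpep (a difference of 4.11, with the second effect between 2 levels under the floor), 4.02 and -0.15 for Naaladl1 (4.17), 1.87 and -0.06 for Anpep (1.93), 1.28 and -0.22 for Mep1b (1.4996) and 1.24 and -0.06 for Mep1a (1.31). For Ace it gave 0.04 and -0.22 (0.26). Loss of Mel18 on the Bmi1-deleted arrays, against loss of Mel18 with Bmi1 present, gave 1.81 and -0.12 for Anpep (1.93). For Mme, under the floor on all arrays, it gave -0.07 and 0.04 (-0.12).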

How the results depend on the processing

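No paired analysis was possible because each genotype has 1 array. The count of 6 peptidases 2-fold higher on DKO than on WT was 5 with a floor of 8 or at 3-fold and 6 under the other alternatives, including Bmi1_KO or Mel18_KO in place of WT; the array swaps were chosen after the data were seen. Of 51 recomputed counts of peptidases, 9 differed from the count reported. Those for DKO minus the single deletions, 6, became 5 with a floor of 8 or log2 of the value plus 32 and 4 at 3-fold, and those for the departure from additivity, 6, became 5 with a floor of 8 or log2 of the value plus 32. A count was taken to have moved when it changed by more than 1.5 times, and a median or difference when it shifted by more than 0.191 on the log2 scale, the smallest scaled median absolute deviation across genes among pairs of arrays without DKO. The median over the 9 peptidases, 1.67, became 1.25 with Mel18_KO in place of WT. For the departure from additivity, the median of 1.31 became 1.4996 with a floor of 8 and 1.502 after cyclic loess, and 3 genes in place of 6 passed 3-fold. Between Bmi1_KO and Mel18_KO, 2 genes in place of 0 passed at 1.5-fold. By these limits the other 85 of 90 recomputed counts and medians did not move. Of 45 recomputed differences of single peptidases, 4 moved, all smaller with log2 of the value plus 32 by construction: Naaladl1 4.01, Enpep 3.45, Anpep 1.55 and Xpnpep2 1.02. Cyclic loess shifted the split of all measured genes 2-fold apart between DKO and the single deletions to 1047 higher and 555 lower, against 918 and 816, and that of the departure from additivity to 1203 and 521, against 1026 and 805. Median centring shifted the median of Bmi1_KO minus Mel18_KO by -0.12. Levels under 6 are near background, which limits Enpep outside DKO and Mme throughout. Xpnpep2 outside DKO read 6.20 to 6.36, only just above that floor.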
